A study of Mus musculus with 17 samples.

Results

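miR-26a and miR-26b, on the arrays mmu-miR-26a and mmu-miR-26b, make up the miR-26 seed family, and were taken by name as 2 of the 569 mature mouse miRs measured, leaving aside the passenger strand named with a star. They occupied 12 of the 3414 miR spots, since each probe was printed as 6 spots. Kidney miRs of wild-type C57/BL6 mice aged 10 to 12 weeks were compared after ischemia reperfusion injury (IRI), in which the kidney went without blood flow for 30 min at body temperature, and after a sham operation without ischemia. IRI and sham kidneys were each taken on 8 days, which were days 1, 3, 5 and 7 and later days 10, 14, 21 and 30 after surgery, naive kidneys came from mice without surgery, and every one of the 17 samples (8 IRI, 8 sham, 1 naive) was RNA pooled from 3 mice. The labels give female mice and the methods of the study male mice. Each day thus had 1 pool per surgery, and the days had to serve as replicates, so that the p-values measure a spread in which error and any change over time are mixed.

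A miR guides the silencing complex to messenger RNAs through its seed, bases 2 to 8 counted from the 5′ end, so that miRs with the same seed are predicted to reach largely the same targets. The miR-26 family is abundant in many differentiated tissues, kidney among them. Its genes lie inside the genes of small C-terminal domain phosphatases and are made together with them, its transcription is repressed by MYC, and EZH2, the methyltransferase of Polycomb complex 2, is among its best studied targets. The probes were designed for the mature forms, which RefSeq gives as follows, with the seed in capitals.

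miR-26a: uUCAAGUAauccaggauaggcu

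miR-26b: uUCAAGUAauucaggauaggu

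The 2 sequences share the seed UCAAGUA and differ by the substitutions C11U and C21U, counted from the 5′ end with the base of miR-26a first, and by 1 more base at the 3′ end of miR-26a, which is 22 bases long against 21. Both members matched RefSeq, and 2 of the 1674 mature mouse sequences there, like 2 of the 569 probes, carried this seed. Outside the pair, the nearest sequence on the array was 11 differences away from miR-26a (miR-145) and 10 away from miR-26b (miR-337-3p). With 3 differences between them, the probe of one member may take up RNA of the other, and how far the probes kept them apart was not tested. The 3 hairpins they are cut from are shown, with the mature form in capitals, because one product has 2 genes and the other 1, and the probe for miR-26a reads the sum of both genes.

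Mir26a-1: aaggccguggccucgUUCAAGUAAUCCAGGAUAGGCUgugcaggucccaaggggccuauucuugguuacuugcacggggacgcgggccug

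Mir26a-2: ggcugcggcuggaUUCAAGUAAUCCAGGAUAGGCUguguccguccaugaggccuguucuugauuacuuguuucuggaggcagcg

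Mir26b: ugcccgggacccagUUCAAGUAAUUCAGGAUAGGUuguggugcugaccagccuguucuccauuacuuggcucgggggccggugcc

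On the plus strand of GRCm38.p6, Mir26a-1 lies at chr9:119031796-119031885 within the span of Ctdspl, Mir26a-2 at chr10:126995530-126995613 within the span of Ctdsp2, and Mir26b at chr1:74394310-74394394 within the span of Ctdsp1. The mature miR-26a is at bases 16 to 37 of the Mir26a-1 hairpin and at bases 14 to 35 of the Mir26a-2 hairpin, and the mature miR-26b at bases 15 to 35 of its own. The other strand of the Mir26b hairpin, miR-26b*, was above background in 1 of the 17 samples and was not tested.

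Each of 8 arrays held both pools of 1 day, with Cy3 on IRI and Cy5 on sham, and a further array held naive, in Cy3, by itself. There was no dye swap, so a constant effect of the dye on a probe and a constant effect of IRI on a miR cannot be told apart. A miR was tested where its normalized level reached 200 in at least 1 sample, which left 162 miRs. Both members passed, and both were among the 100 miRs above background in all 17 samples, background being the median of the empty spots plus 3 times their median absolute deviation. The naive array was the weakest, with a mean signal over background of 208 against 526 to 1411 elsewhere. The number of arrays limits the precision.

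The level of miR-26a in the kidney ran from 13.71 to 14.83 over all 17 samples, and that of miR-26b from 12.87 to 13.90 over the 16 samples taken after surgery, with naive far below. All levels in the text are normalized log2 intensities unless another scale is named. miR-26a in IRI was 14.35, 14.48, 13.83, 14.30, 13.71, 14.12, 14.20 and 13.83 on the 8 days, from day 1 to day 30. In sham it was 14.78, 14.65, 13.85, 14.83, 14.55, 14.14, 14.06 and 13.84 on the same days, and in naive it was 14.13. The ranges of the arms overlapped, the highest sham levels falling on days 1 and 7 and the lowest IRI level on day 10. The mean over days was 14.10 ± 0.28 in IRI and 14.34 ± 0.41 in sham (SD, n = 8 each), so naive lay between them and neither neighbour in that order was farther away than the spread of the days.

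miR-26b in IRI was 13.77, 13.16, 13.52, 12.87, 12.99, 13.26, 13.23 and 13.52 on the 8 days. The sham levels of miR-26b were 13.90, 13.30, 12.94, 12.97, 13.04, 13.19, 13.04 and 12.94, and its naive level was 9.76. Day 1 was the highest day of both arms, the arms overlapped, and the naive pool stood below every other sample. Its mean over days was 13.29 ± 0.30 in IRI and 13.17 ± 0.32 in sham (SD, n = 8 each), which differ by less than either spread. IRI and sham did not overlap in 3.09% of the 162 miRs tested, and neither member was among these.

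**Figure D1:**
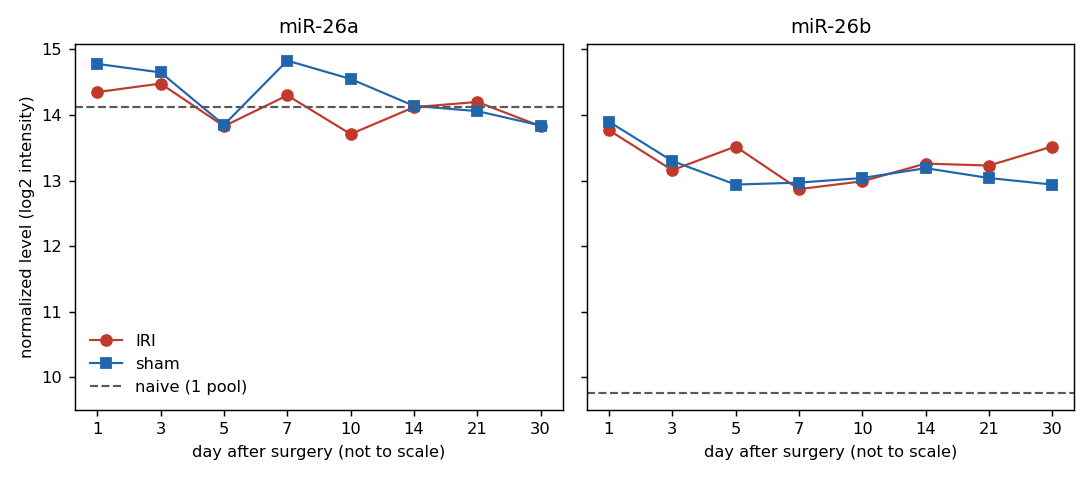
Normalized level (log2 intensity) of miR-26a and miR-26b on each day after IRI (red circles) or sham surgery (blue squares), 1 pool of 3 mice per point, with the naive pool as a dashed line. The naive line runs through the miR-26a points at 14.13 and lies below every miR-26b point at 9.76.

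On the linear scale of the authors' processed table the naive level of miR-26b again stood apart, while that of miR-26a took another place. There miR-26a was between 19434 and 22965 in IRI (median 20887), between 11973 and 29715 in sham (median 21000) and 13328 in naive, which was below all 8 IRI values and below 7 of the 8 sham values, all but that of day 30. miR-26b was between 9198 and 16436 in IRI (median 12814), between 6639 and 15596 in sham (median 10215) and 1733 in naive. In that table the IRI levels of miR-26a had a narrower range than the sham levels, and the naive level of miR-26b was again the lowest of the 17.

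Relative to other tested miRs, the levels varied moderately over the days. The SD over the 8 IRI days was 0.28 for miR-26a and 0.30 for miR-26b, against a median of 0.34 over the 162 miRs, of which 52 and 59 had a smaller SD. Over the 8 sham days the SDs were 0.41 and 0.32 (median 0.35 over the 162), with 97 and 71 miRs smaller. The 6 spots of a probe agreed more closely than the days. Their coefficient of variation was 1.71% to 14.4% for miR-26a and 1.58% to 12.8% for miR-26b in IRI, and 2.92% to 9.72% and 4.54% to 10.2% in sham. None of the 204 spots of the members was saturated, the brightest being 36017 where the scanner reached 65535.

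Whether the injury changed either member was asked first with the log2 IRI/sham ratio within each array. Neither miR-26a nor miR-26b passed the test of the mean ratio. For miR-26a the ratio was −0.43, −0.16, −0.02, −0.53, −0.84, −0.02, 0.14 and −0.01 from day 1 to day 30. It was below 0 on 7 arrays, most on days 10, 7 and 1, and lay within 0.14 of 0 on days 5, 14, 21 and 30. The mean was −0.23 (SE 0.12, 95% interval −0.50 to 0.03, n = 8), with an adjusted p of 0.150 by limma with Benjamini-Hochberg adjustment and a two-sided exact sign-flip p of 0.0703. For miR-26b the ratio was −0.13, −0.14, 0.58, −0.10, −0.04, 0.07, 0.19 and 0.58 on the same days. It was below 0 on 4 arrays and above 0 on 4, with days 5 and 30 apart from the rest. The mean was 0.12 (SE 0.11, 95% interval −0.12 to 0.37, n = 8; limma adjusted p = 0.387, two-sided exact sign-flip p = 0.344). Against these intervals, 59 of the 162 miRs, 36.4%, passed the same test, 30 (18.5%) with a higher and 29 (17.9%) with a lower level in IRI, and the count was 26 without day 21, 29 without day 14, 30 without day 7 and 37 without day 30. In RNA of whole kidney, fewer cells of a type and less RNA per cell cannot be told apart.

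**Figure D2:**
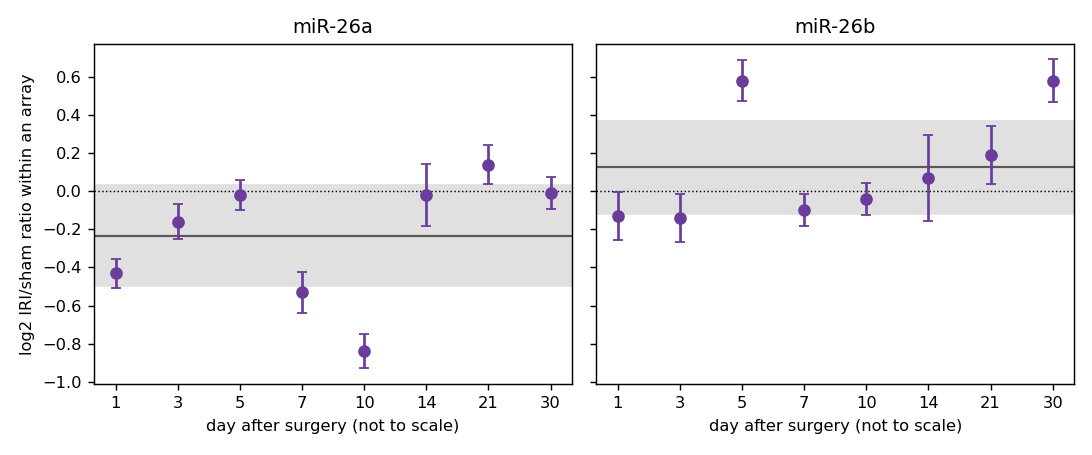
log2 IRI/sham ratio within the array of each day for both members. Points are days, bars the SD over the 6 spots, the solid line the mean over the 8 days and the grey band its 95% interval. Both bands include 0, and 7 of the 8 miR-26a points lie below it.

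The direction and the call of the miR-26a mean depended on the processing. With the 2 channels scaled by their medians in place of the loess curve, the mean ratio of miR-26a was −0.69 (limma adjusted p = 0.00794), and that of miR-26b −0.24 (limma adjusted p = 0.311). In the authors' processed values the mean was 0.05 for miR-26a (limma adjusted p = 0.807), and with the empty spots subtracted in place of normexp it was 0.06. The mean of miR-26b was 0.28 (limma adjusted p = 0.178) and 0.33 (limma adjusted p = 0.106) under these last alternatives, with 7 of 8 arrays above 0 in each. The cause of these changes was not tested, and no direction is given for either member. Both lay near the top of the intensity range, where on each of the 8 arrays with both pools 5 to 7 miRs were brighter than miR-26a and 7 to 13 were brighter than miR-26b. The median ratio of all 162 miRs was −0.04 in the main processing and between −0.05 and 0.01 under these alternatives, and of the called miRs 50.8% were higher in IRI in the main processing and 55.2% to 57.4% under the same 3 alternatives.

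The 2 members were then compared with each other on the same arrays, where a common shift of a channel cancels. The ratio of miR-26a was below that of miR-26b on 8 of 8 arrays, by −0.30, −0.03, −0.60, −0.42, −0.79, −0.09, −0.05 and −0.59 from day 1 to day 30. The difference was near 0 on days 3, 14 and 21 and beyond −0.40 on days 5, 7, 10 and 30. Its mean was −0.36 ± 0.29 (SD, n = 8; SE 0.10), which is a ratio 1.28-fold lower for miR-26a than for miR-26b, with a two-sided exact sign-flip p of 0.00781, the smallest that 8 days allow. On background-subtracted intensities without any normalization, an alternative chosen after seeing the data, the difference was −0.31, −0.12, −0.69, −0.57, −1.04, −0.20, −0.11 and −0.59, again below 0 on 8 arrays. In the authors' values it was −0.23 on average and below 0 on 7 of 8 arrays (exact p = 0.0234), day 14 being the exception. A dye difference between the 2 probes and a difference between the surgeries cannot be told apart in this mean.

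**Figure D3:**
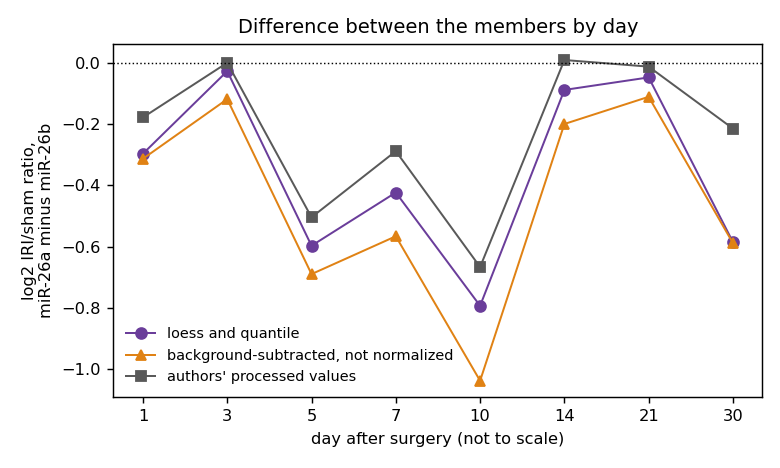
log2 IRI/sham ratio of miR-26a minus that of miR-26b on the array of each day, in the main processing (circles), in background-subtracted intensities without normalization (triangles) and in the authors' processed values (squares). Circles and triangles are below 0 on all 8 days, and all 3 lines are lowest on day 10.

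The ratios of the members moved in the same sense from array to array, without passing a test. Pearson's r over the 8 arrays was 0.588 (exact permutation p = 0.124) and Spearman's rho 0.595 (exact permutation p = 0.132), and both were 0.132 after adjustment over these 2 coefficients. Without days 7 and 10, the arrays farthest from the median of miR-26a, they were 0.581 and 0.543 (exact permutation p = 0.244 and 0.297, n = 6). The arrays share their normalization, and r rests on 1 pool per arm and array. Among the 161 other tested miRs, miR-26b ranked 25th in likeness to miR-26a, and miR-26a ranked 18th in likeness to miR-26b.

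The miRs whose log2 IRI/sham ratio was most like that of miR-26a over the 8 arrays were miR-143 (r = 0.859), miR-191 (0.784), miR-183 (0.784), miR-181a-1* (0.768) and miR-511 (0.752). Those least like it were miR-92a (−0.763) and miR-187 (−0.712). For miR-26b the most alike were miR-10a* (0.795), miR-199a-3p (0.777), miR-24 (0.770), miR-361 (0.739) and miR-143 (0.737), and the least alike miR-483 (−0.891) and miR-699 (−0.811). miR-143, a miR of smooth muscle, was the one name on both lists. These r values describe 8 shared arrays, and are the extremes of 161 for each member. Of the most alike, miR-183 with a mean ratio of 0.70 (limma adjusted p = 0.0125) and miR-199a-3p with one of 1.87 (limma adjusted p = 0.000573) passed the test of the mean, and the others, with means from −0.13 to 0.22, did not.

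A change that grows or fades with time would stand in a slope fitted to the ratio against log2(day), in which a dye bias equal on all arrays cancels. The slope per doubling of the day was 0.07 for miR-26a (SE 0.08, 95% interval −0.10 to 0.25, limma adjusted p = 0.617, exact permutation p = 0.383). The slope of miR-26b was 0.10 (SE 0.07, 95% interval −0.06 to 0.25, limma adjusted p = 0.413, exact permutation p = 0.189). Of the 162 miRs 4 had a slope that passed, 2.47%, and 34 had an unadjusted p under 0.05. Neither member was among the 4, and the count rested on single days, with 19 calls without day 1 and 0 without day 21 or 30 (limma, 25 and 28 at an unadjusted p under 0.05).

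By period, the mean ratio of miR-26a was −0.20 ± 0.21 on days 1, 3 and 5 (SD, n = 3), −0.68 ± 0.22 on days 7 and 10 (n = 2) and 0.04 ± 0.09 on days 14, 21 and 30 (n = 3). That of miR-26b was 0.10 ± 0.41, −0.07 ± 0.04 and 0.28 ± 0.26 in the same periods. In this processing the lowest values of miR-26a included those of both middle days, whereas miR-26b stayed near 0 there. In the authors' values the middle days were −0.17 and −0.37 for miR-26a, with day 3 at −0.22, and 0.12 and 0.30 for miR-26b, and the late days were 0.08, 0.29 and 0.83 for miR-26a. The late minus early difference was 0.24 for miR-26a (SE 0.17, 95% interval −0.16 to 0.64, limma adjusted p = 0.438) and 0.17 for miR-26b (SE 0.25, 95% interval −0.41 to 0.76, limma adjusted p = 0.729). In the authors' values these differences were 0.49 (limma adjusted p = 0.316) and 0.34 (limma adjusted p = 0.571), and with empty-spot subtraction 0.44 and 0.32. The exact permutation p was 0.1 for miR-26a, the smallest that 3 days against 3 allow, and 0.6 for miR-26b, and 9 of the 162 miRs, 5.56%, passed the limma test.

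Within an arm, the slope of the level over log2(day) was below 0 for both members in the main processing. In sham it was −0.17 for miR-26a (SE 0.08, limma adjusted p = 0.439, exact permutation p = 0.0848) and −0.16 for miR-26b (SE 0.05, limma adjusted p = 0.239, exact permutation p = 0.0225). Neither passed over all miRs, and without day 1 the sham slope of miR-26b was −0.05. In IRI the slope was −0.09 for miR-26a (SE 0.06, limma adjusted p = 0.390) and −0.06 for miR-26b (SE 0.07, limma adjusted p = 0.620). Without day 1 the IRI slope of miR-26b was 0.06, and in the authors' values that of miR-26a was 0.02. Over all tested miRs 8.64% had an IRI slope that passed and 1.23% a sham slope that passed.

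Surgery of either kind was compared with the naive pool, without a test because naive is 1 sample. The level of miR-26b was higher than naive in 8 of 8 IRI samples, by 3.53 ± 0.30 (log2, SD over days), which is 11.5-fold, and in 8 of 8 sham samples, by 3.40 ± 0.32, which is 10.6-fold. The smallest excess of any sample was 3.11. The level of miR-26a differed from naive by −0.03 ± 0.28 in IRI, with 4 of 8 samples above it, and by 0.21 ± 0.41 in sham, with 5 of 8 above. This too depended on the processing: it was 0.65 in IRI and 0.60 in sham in the authors' values, and 0.61 and 1.29 with median scaling. Both arms are set against the same naive pool, so their agreement is not independent. Naive was in Cy3 like IRI, whereas sham was in Cy5. The dye and the sham operation cannot be told apart in the sham difference. The loess step did not include naive, which was alone on its array. Over the 162 miRs the median difference was 0.20 in IRI and 0.24 in sham. Over all 16 samples the excess of miR-26b was 3.46, near those of miR-10a at 3.48 and miR-27a at 3.30. Its rank among the 162 ran from 1st to 9th with the processing. Some naive values, that of miR-15a among them, were not above background, so that the size of their excess is uncertain.

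**Figure D4:**
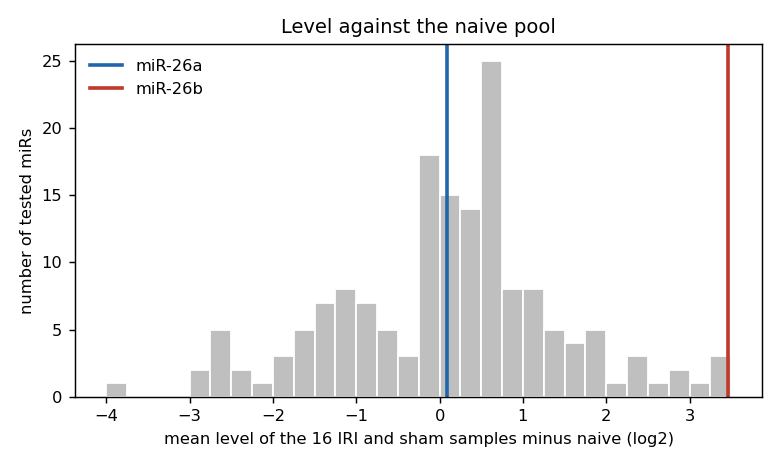
Mean normalized level of the 16 IRI and sham samples minus the naive level (log2) for the 162 tested miRs, in bins of 0.25, with the members marked. miR-26b stands at the upper end at 3.46, and miR-26a within the bulk.

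Many miRs shared this direction. Naive was below all 16 other samples in 54 of the 162 miRs, 33.3%, and above all 16 in 38, 23.5%. The scanner value behind the naive level of miR-26b was 648, which was 1.15 times the background limit of that array, whereas that of miR-26a was 2556, 4.52 times the limit. In the 16 other samples both members were at least 18.6 times their limit. The size of the miR-26b difference depended on the processing: in the authors' values it was 2.84 in IRI and 2.56 in sham. On background-subtracted intensities without normalization, miR-26b was 6.66% of miR-26a in naive, 42.8% to 89.2% of it in IRI and 20.8% to 71.7% in sham. Such a percentage sets 2 probes side by side, so that only its change between samples is read, and it was lowest in naive.

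Base composition moved with the naive difference. miR-26a has 9 G or C among its 22 bases (40.9%) and miR-26b 7 among 21 (33.3%), against a median of 47.7% over the tested miRs. The median was 45.5% in the 54 miRs that were lowest in naive and 47.8% in the other 108. Across the 162 miRs, which are not independent and share the 1 naive array, Spearman's rho between G and C content and the excess over naive was −0.438 (−0.259 with median scaling), and between that content and the mean IRI/sham ratio −0.0501. The part of base composition, of the dye, of the weak naive array and of surgery in the level of miR-26b was not tested.

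Other abundant miRs of differentiated tissue were listed beside the members: the let-7 and miR-30 families, miR-23b, miR-24, miR-27b, the miR-29 and miR-200 families and others, 34 in all, of which 32 were tested. In IRI 3 of them rose, 11 fell and 18 did not pass, and the median ratio was −0.17 against −0.04 for all 162 miRs, of which 18.5% rose and 17.9% fell. The highest was miR-10a at 0.60 (limma adjusted p = 0.0357), a miR encoded in a Hox cluster, and the lowest miR-200a at −1.11 (limma adjusted p = 0.0231), which keeps epithelial cells in their state by repressing ZEB1 and ZEB2. With the channels scaled by their medians 1 rose and 15 fell, and in the authors' values 3 rose and 7 fell, with medians of −0.36 and −0.16. The 2 members, with −0.23 and 0.12, lay within the range of this list and, like 18 of its miRs, did not pass.

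Of 18 miRs that MYC is known to repress, other than the members, 16 were tested. The list shares its let-7, miR-29 and miR-30 miRs with the one before and miR-150 with the leukocyte list. Of these 3 rose, 5 fell and 8 did not pass, with a median of −0.12, beside 18.5% higher and 17.9% lower over all 162. In the authors' values 3 rose and 2 fell, with empty-spot subtraction 3 rose and 3 fell, and with median scaling 3 rose and 6 fell, with a median of −0.28. The highest was miR-146a at 1.27 (limma adjusted p = 0.0330), a miR induced by NF-κB, and the lowest let-7d at −0.65 (limma adjusted p = 0.0330). The list of MYC-driven and proliferation miRs had 9 of its 10 names on the array, and the 6 tested all rose, with a median of 0.65. They ran from miR-93 at 0.36 (limma adjusted p = 0.0357) to miR-25 at 1.18 (limma adjusted p = 0.000345), both members of the cluster within Mcm7. In the authors' values 5 of these 6 passed, and none fell under the 3 scalings named above.

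Markers of kidney cells were read on the same arrays, where 18.5% of the 162 miRs rose, 17.9% fell and 3.09% did not overlap between the arms. Most of the tubule, endothelial and smooth muscle miRs also stand among the miRs of differentiated tissue. Of 7 miRs of kidney tubule 5 were tested, 3 fell and 2 did not pass, with a median of −0.42. With median scaling 4 fell, with a median of −0.71, and with empty-spot subtraction 2 fell. In the main processing they ran from miR-192, a miR of renal epithelium, at −0.88 (limma adjusted p = 0.0125) to miR-10b at 0.33 (limma adjusted p = 0.140). The summed level of all 7, tested or not, on the linear scale was 18160 to 26500 in IRI, 20120 to 27660 in sham and 21440 in naive. The 3 leukocyte miRs tested, of 5, all rose, from miR-150 at 0.92 (limma adjusted p = 0.0257) to miR-155 at 1.52 (limma adjusted p = 0.000887). The sum of all 5, tested or not, was 1447 to 3266 in IRI, 820 to 1177 in sham and 632 in naive. The 4 fibroblast and matrix miRs all rose, from miR-199a-5p at 0.43 (limma adjusted p = 0.0330) to miR-21 at 2.51 (limma adjusted p = 5.78e-05), and their sum was 20080 to 35530 in IRI, 4942 to 10160 in sham and 4826 in naive. These sums did not overlap between IRI and sham for leukocyte and fibroblast miRs, and overlapped for tubule miRs as the members did. The part of a changed mix of cells in the levels of miR-26a and miR-26b was not tested.

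In the remaining lists no mean ratio passed. Of the erythroid miRs 2 of 3 were tested, miR-451 at −0.68 (limma adjusted p = 0.242) and miR-486 at −0.78 (limma adjusted p = 0.0930), and both are among the 4 miRs whose slope passed, at −0.79 (limma adjusted p = 0.0124) and −0.59 (limma adjusted p = 0.0252), calls that were lost without day 21 or day 30. The endothelial miR-126-3p was at −0.03 (limma adjusted p = 0.841), and the smooth muscle miRs at −0.13 for both miR-143 (limma adjusted p = 0.488) and miR-145 (limma adjusted p = 0.690). Of 6 miRs of liver, muscle and neurons 2 were tested, miR-1 at 0.11 (limma adjusted p = 0.500) and miR-122 at −0.73 (limma adjusted p = 0.392), and no miR of these 2 lists for blood and other tissues was above background in every sample.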

How the data were processed

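Small RNAs of kidney were tailed, tagged and hybridised to miRBase 10.0 probes, as the labels and methods give it; scanner and software are not given in the sources used here. Both of the following were deposited by the authors: scanner intensity averaged within every spot, with neither background correction nor normalization, and a table of processed intensity, linear in scale, with 1 value for a miR in a sample, made in a way that is not given. The columns of that table correlated over miRs at 0.981 to 0.9996 with their own channel and at 0.834 to 0.956 with the other channel, and their medians were 17 to 20. Its scale and direction are thus known and its centring is not. For each of 8 arrays the same file was deposited under both samples and was read once per dye.

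Background was corrected with normexp (limma 3.58.1 in R 4.3.3, offset 50, all spots), the 6 spots were averaged on the linear scale, a loess curve (controls at weight 0) normalized the channels, and array means, naive included, were quantile-normalized. miRs that reached 200 in at least 1 sample were tested with lmFit and eBayes on the log2 IRI/sham ratio, Benjamini-Hochberg adjusted over all 162, at a threshold of 0.05. The ratio within an array makes the array a block: per the labels, IRI and sham of a day share a hybridisation. Deviations from the arm means correlated unevenly over miRs between the channels of an array. From day 1 to day 30 the coefficients were −0.04, 0.18, 0.07, 0.64, 0.71, 0.12, 0.31 and −0.06. Single values were tested by exact permutation, two-sided, and intervals are 95%. The authors' values entered as log2(value + 1). Scripts were tested on simulated data.

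The members and lists were chosen with earlier results of these data known. The miRs named are the members, for each the 5 highest and 2 lowest correlations of the ratio over the arrays, and the highest and lowest mean ratio of each list; miRs named beside the naive comparison, and those of the lists of 2 with values, were chosen after their values were seen. Alternatives were the authors' values, subtraction of the empty-spot median, median scaling, other filters, the median of spots, each day left out, an intensity trend with robust variance, day in place of log2(day) and no array block. Intensities without normalization, median-centred ratios without loess, and the spots of the upper or the lower part of the array were added after seeing the data.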

Additional observations from a re-analysis of the deposited data

Results flagged for a closer look

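The sham level of miR-26b on day 1, 13.90, stood apart from the other 7 sham days, which ran from 12.94 to 13.30. Its gap to the nearest day was 0.628 of the whole range, beyond Dixon's 95% critical value for 8 values. Of the 7 groups of 8 values examined this was the one past that value, and chance gives about 1 such group in 20. The IRI level of the same day was also the highest of its arm, at 13.77, and the ratio of that array was −0.13. The cause was not tested.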

How the results depend on the processing

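Days left out 1 at a time aside, there were 146 alternative values for 17 results. Of these, 129 kept the direction and the side of the threshold or moved by less than the spread. Of 136 values with 1 day left out, given further below, 11 did not. The others of the 146 follow, and the cause was not tested. The mean ratio of miR-26a was 0.05 in the authors' values, 0.06 with empty-spot subtraction, −0.69 with median scaling (adjusted p = 0.00794) and −0.71 with median-centred ratios without loess (adjusted p = 0.0222), the last chosen after seeing the data. For miR-26b it was −0.24 and −0.26 under these last 2. The IRI slope of miR-26a was 0.02 in the authors' values, and that of miR-26b 0.000656 per day with day in place of log2(day). The miR-26a difference from naive was 0.65 in IRI in the authors' values, 0.61 in IRI and 1.29 in sham with median scaling, and that of miR-26b was 2.84 in IRI and 2.56 in sham in the authors' values. The mean ratio called 100 of 569 miRs without a filter. The slope called 2 with median scaling, 14 with day in place of log2(day) and 0 of 569 without a filter (limma, 51 at an unadjusted p under 0.05).

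Without the array block or pairing, the means were the same, −0.23 (adjusted p = 0.351) and 0.12 (adjusted p = 0.609), the late minus early differences were 0.24 (adjusted p = 0.820) and 0.17 (adjusted p = 0.839), and 51 miRs were called in place of 59.

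Leaving out 1 day at a time gave means of −0.29 to −0.15 for miR-26a and 0.06 to 0.16 for miR-26b, ratio slopes of 0.05 to 0.09 and 0.05 to 0.12, and late minus early differences of 0.13 to 0.33 and 0.03 to 0.41. Level slopes were −0.12 to −0.07 and −0.12 to 0.06 in IRI, and −0.19 to −0.14 and −0.18 to −0.05 in sham. Differences from naive were −0.08 to 0.03 and 3.46 to 3.59 in IRI, and 0.14 to 0.28 and 3.30 to 3.43 in sham. The difference between the members was −0.41 to −0.30 (exact p = 0.0156 each time, the smallest that 7 days allow), and −0.45 to −0.23 over all its alternatives. The mean called 26 to 59 miRs, and the slope 19 without day 1, 1 without day 7 or 14, 2 without day 3 and 0 without day 21 or 30 (limma, 25 and 28 at an unadjusted p under 0.05). Signal over background limits the naive level of miR-26b.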
